A study of Mus musculus with 4 samples.

Results

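JmjC demethylases of the KDM2 to KDM5 families were followed in mouse embryonic stem cell lines labelled as UTX knockout or UTX conditional knockout. The 10 genes are Kdm2b, Kdm3a, Kdm3b, Jmjd1c, Kdm4a, Kdm4b, Kdm4c, Kdm5a, Kdm5b and Kdm5c. Every probe set that the annotation of the Affymetrix whole-genome mouse array assigns to one of them and to no other gene was taken, which gave 31 of the 34945 probe sets that name 1 gene. These stand for 10 of 18193 named genes. Kdm2a, Kdm4d and Kdm5d belong to the same families but were not among the 10. The KO group held UTX knockout cell lines 1 and 2, and the cKO group held UTX conditional knockout cell lines 1 and 2, with 1 array for each line. All 4 lines had been kept in serum and LIF on irradiated fibroblast feeders and passaged on gelatin before total RNA was taken. The labels name no other allele or agent, and they state neither how the conditional allele was built nor whether the KO lines were derived from the cKO lines. They also do not say that the RNA came from separate cultures, so the p-values below measure the spread between these 4 arrays, which may be partly technical. The number of arrays limits the precision of each value.

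JmjC demethylases remove methyl groups from histone lysines in a reaction that uses iron, oxygen and 2-oxoglutarate. UTX, the product of the X-linked gene Kdm6a, belongs to the same superfamily and acts on methylated lysine 27 of histone H3 (H3K27). The families followed here act on other marks. KDM2 enzymes act on methylated H3K36, KDM3 enzymes on H3K9, KDM4 enzymes on H3K9 and H3K36, and KDM5 enzymes on H3K4, the mark of active promoters. The comparison of KO with cKO lines shows whether transcripts of these relatives differed between lines with these 2 labels.

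The arrays were checked first. Kdm6a read 265 and 198 in KO lines 1 and 2, against 658 and 415 in cKO lines 1 and 2. The groups did not overlap, and its log2 fold change of -1.17 missed the threshold (limma, adjusted p = 0.0884). It passed when arrays were centred on their medians (-1.22, adjusted p = 0.00914) and with the line number as a block (adjusted p = 0.00811). It did not pass with no filter (adjusted p = 0.173) or with no variance trend (adjusted p = 0.157). With 1 array left out its log2 fold change ran from -1.50 to -0.84. The mean of its probe sets, which includes a pair of dim ones, gave -0.57 (adjusted p = 0.522). Pluripotency genes were bright on every array, and Pou5f1, the gene for OCT4, read between 10179 and 11273. Of 10 tested pluripotent cell markers, 0 passed the threshold, and 3 had an unadjusted p under 0.05. These were Sox2 at a log2 fold change of 0.37 (adjusted p = 0.0994), Zfp42 at 0.51 (adjusted p = 0.102) and Esrrb at 0.94 (adjusted p = 0.115), the highest on the list. Among the 10 markers, 7 were positive and 3 negative, with a median of 0.16. With 1 array left out Zfp42 ran from 0.37 to 0.64. Their summed signal was 102188 and 93936 in KO lines and 88005 and 88115 in cKO lines. Of 15 feeder fibroblast markers, 10 were tested and 2 were called, both lower in KO lines. These were Col5a1 (log2 fold change -1.43, adjusted p = 0.0295), a call that ended without cKO line 1 (adjusted p = 0.0938), and Thy1 (-1.20, adjusted p = 0.0483), a call that ended without KO line 2 (adjusted p = 0.0574) or cKO line 2 (adjusted p = 0.163). Both calls also ended with no filter (adjusted p of 0.0739 for Col5a1 and 0.112 for Thy1), with the mean of probe sets (0.0563 and 0.0566) and with no variance trend (0.0628 and 0.0824). Of the 10, 9 were negative, the median was -1.21, and Col6a1, Pdgfra, Pdgfrb and Lum lay below the filter. The list had a summed signal of 11290 and 10356 in KO lines and 16661 and 12470 in cKO lines. In bulk RNA of this kind, fewer cells of a type and less RNA per cell cannot be told apart, and the part of either marker list in the values below was not tested.

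None of the 10 genes passed the test between KO and cKO lines. A gene was represented by its brightest probe set, and it was called at a Benjamini-Hochberg adjusted p under 0.05 in limma. By this rule 0 of 10 were called, against 2.2% of the 10916 genes tested, so that less than 1 call would stand at that share in a list of this size. At an unadjusted p under 0.05 the count was also 0 of 10, against 13.8% of genes tested. The log2 fold changes of KO over cKO ran from -0.29 (Kdm2b) to 0.36 (Kdm4b) with a median of 0.04, where the median over all genes tested was 0.01. Of the 10 values 6 were positive and 4 negative. The 95% interval of every one of the 10 lay inside a 2-fold change in either direction, which was also so for 79.6% of genes tested. The lowest bound was -0.72 for Kdm2b and the highest was 0.89 for Kdm4b.

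The groups did not overlap for 3 of the 10 genes, Kdm4a, Kdm4b and Kdm5b, with KO above cKO in each. This share lay below the 42.6% of genes tested whose groups did not overlap. With 2 lines in each group no exact permutation test of a single gene can give a two-sided p under 1 in 3, so only the model across all genes was used.

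**Figure D1:**
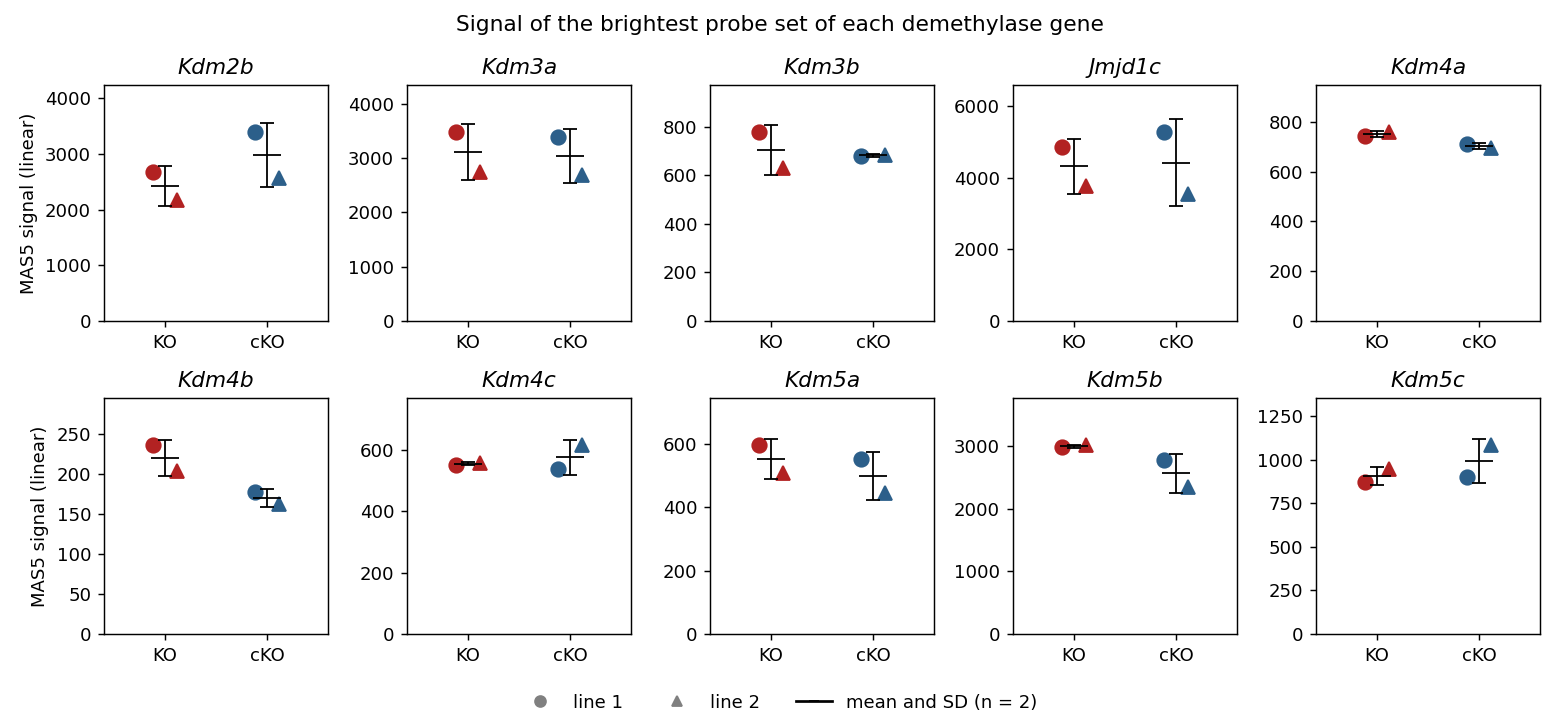
Signal (MAS5, linear scale from 0) of the brightest probe set of each gene, with KO lines left of cKO lines, circles for line 1, triangles for line 2, and a black bar for the mean and SD (n = 2). KO points stand above cKO points for Kdm4a, Kdm4b and Kdm5b, and the groups overlap in the other panels.

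Kdm2b encodes a protein that joins a JmjC domain to a CXXC zinc finger, through which it binds unmethylated CpG sites and brings a variant Polycomb complex (PRC1.1) to CpG islands. It is known to be made in a long form with the JmjC domain and a short form, from a start inside the gene, without it. The gene lies on the minus strand of chromosome 5 (GRCm38.p6, chr5:122870664-122989270). The RefSeq table used here holds 4 start windows for it, of 250 bases before and 50 after a start, in an upstream and an inner pair. The window of an inner start (chr5:122900301-122900600) and that of the start 88749 bases upstream (chr5:122989050-122989349) are shown because Kdm2b had the lowest log2 fold change of the 10 genes and the array does not report which start its signal comes from. Both are RefSeq sequence, 5′ to 3′ on the minus strand, and capitals mark a palindrome of 12 bases described below.
Kdm2b inner start: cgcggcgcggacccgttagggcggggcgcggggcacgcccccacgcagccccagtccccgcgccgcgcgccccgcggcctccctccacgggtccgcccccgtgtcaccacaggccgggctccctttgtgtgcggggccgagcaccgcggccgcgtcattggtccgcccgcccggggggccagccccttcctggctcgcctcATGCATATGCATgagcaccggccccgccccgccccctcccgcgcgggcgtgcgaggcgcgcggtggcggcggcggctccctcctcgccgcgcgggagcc
Kdm2b upstream start: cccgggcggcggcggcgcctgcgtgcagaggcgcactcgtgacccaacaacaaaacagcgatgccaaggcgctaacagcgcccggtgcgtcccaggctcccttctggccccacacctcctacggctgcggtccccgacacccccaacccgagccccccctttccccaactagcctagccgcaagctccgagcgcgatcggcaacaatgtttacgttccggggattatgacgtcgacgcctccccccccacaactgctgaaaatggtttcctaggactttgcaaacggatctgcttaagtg

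The inner window holds 49 CpG dinucleotides and the upstream one 28, where the median over 32851 RefSeq start windows of 300 bases was 7. In all, 7 of the 10 genes had 14 windows in this table. Their CpG counts ran from 0 to 49 with a median of 21, and 12 of the 14 lay above the median of all windows. The capitals in the inner window spell ATGCATATGCAT, which reads the same on both strands and is known as the MORE, a motif that POU factors such as OCT4 can bind as a dimer. It was searched for after it had been seen in this window. It occurred in 3 of 32851 windows (0.00913%), and 2 of these 3 were the overlapping inner windows of Kdm2b. The match describes letters only, and no binding was measured here.

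Both probe sets of Kdm2b read lower in KO lines by their means. The brighter one, 1459861_s_at, read 2678 and 2170 in KO lines 1 and 2, against 3386 and 2574 in cKO lines 1 and 2. KO line 1 stood above cKO line 2, so the groups overlapped. The means were 2424 ± 359 in KO and 2980 ± 575 in cKO lines (SD, n = 2 each). On the log2 scale KO over cKO was -0.29 (SE 0.18, 95% interval -0.72 to 0.14, adjusted p = 0.578). The other probe set, 1452198_at, read 1615 and 1247 in KO lines, against 2328 and 1920 in cKO lines. Here both KO values lay under both cKO values. Its log2 fold change was -0.57 (SE 0.18), with a 95% interval that equals a fold of 0.50 to 0.903. The ratio of its mean linear signals was 0.674. The probe set had an unadjusted p of 0.015, which did not pass over all probe sets (limma, adjusted p = 0.269). It was the only one of the tested member probe sets with an unadjusted p under 0.05, a level that 11.3% of all probe sets tested reached. With 1 array left out its log2 fold change ran from -0.76 to -0.39, and that of the brighter probe set from -0.49 to -0.09. With the line number as a block, 1452198_at passed (adjusted p = 0.00981). The labels say nothing of a pairing between lines.

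The KDM3 genes showed the smallest log2 fold changes. Kdm3a, an H3K9 demethylase that is active in mouse embryonic stem cells and germ cells, had 1 probe set. It read 3476 and 2746 in KO lines 1 and 2, against 3393 and 2691 in cKO lines 1 and 2. The values of equal line number nearly coincided, and line 1 stood above line 2 in both groups. Its log2 fold change was 0.03 (SE 0.18, 95% interval -0.38 to 0.44, adjusted p = 0.969).

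Kdm3b, its close relative, read 778 and 632 in KO lines, against 678 and 685 in cKO lines. The KO values lay on either side of the cKO values, and the log2 fold change was 0.04 (95% interval -0.37 to 0.45, limma adjusted p = 0.959). A dimmer second probe set, 1458417_at, read 181 and 153 in KO lines and 155 and 127 in cKO lines (log2 fold change 0.24, adjusted p = 0.83), with 0.10 to 0.38 when 1 array was left out.

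Jmjd1c, the third member of the KDM3 family, had the widest spread within groups among the 10 genes. Its brightest probe set, 1426900_at, read 4857 and 3775 in KO lines, against 5267 and 3551 in cKO lines. Both KO values lay between the cKO values, and the log2 fold change was -0.01 (SE 0.21, 95% interval -0.51 to 0.48, limma adjusted p = 0.988). Between lines of one group, line 1 exceeded line 2 by 0.36 (log2) in KO and by 0.57 in cKO lines. The other probe sets of Jmjd1c did not share this pattern. The probe set 1439998_at read 517 and 555 in KO lines, against 548 and 498 in cKO lines (log2 fold change 0.04). For 1448049_at the values were 448 and 477 in KO lines, against 576 and 520 in cKO lines, so the groups did not overlap (log2 fold change -0.24, adjusted p = 0.736).

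Kdm4a, Kdm4b and Kdm4c encode demethylases of trimethylated H3K9 and H3K36. Kdm4a had the tightest groups of the 10 genes on a log2 scale and read 742 and 758 in KO lines 1 and 2, against 710 and 694 in cKO lines 1 and 2. Its groups did not overlap, and the difference was small, with means of 750 ± 11.3 in KO and 702 ± 10.8 in cKO lines (SD, n = 2 each). On the log2 scale KO over cKO was 0.09 (SE 0.15, 95% interval -0.27 to 0.45, adjusted p = 0.867). A second probe set of Kdm4a read at most 23.9 on any array and lay below the filter on low signals.

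Kdm4b had the highest log2 fold change of the 10 genes and also the dimmest brightest probe set. It read 237 and 205 in KO lines, against 178 and 163 in cKO lines. Both KO values stood above both cKO values. The log2 fold change was 0.36 (SE 0.22, 95% interval -0.16 to 0.89, adjusted p = 0.571), and it stayed positive under each of the 12 alternatives in which the gene was tested. Kdm4c, which has been linked to the upkeep of Nanog transcription in mouse embryonic stem cells, read 551 and 557 in KO lines, against 536 and 615 in cKO lines. Both KO values lay between the cKO values (log2 fold change -0.05, 95% interval -0.44 to 0.34, limma adjusted p = 0.941).

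The KDM5 genes encode demethylases of trimethylated H3K4. Kdm5b is the best known of them in embryonic stem cells, where it is abundant. All 4 of its probe sets read higher in both KO lines than in both cKO lines, though none passed the test. The brightest, 1427143_at, read 2988 and 3021 in KO lines 1 and 2, against 2790 and 2349 in cKO lines 1 and 2. Its means were 3004 ± 23.5 in KO and 2569 ± 312 in cKO lines (SD, n = 2 each). KO over cKO came to 0.23 on the log2 scale (SE 0.14, 95% interval -0.10 to 0.56, adjusted p = 0.566). For 1427142_s_at the signals were 2580 and 2419 in KO lines, against 2350 and 2242 in cKO lines, a log2 fold change of 0.12. The probe set 1457482_at gave 306 and 371 in KO lines, against 244 and 289 in cKO lines, or 0.34 on the log2 scale. The dimmest, 1442278_at, gave 72.9 and 62.3 in KO lines, against 39.9 and 52.1 in cKO lines, or 0.52. Both of its cKO values lay under the filter signal of 53.8. It was therefore tested only through its KO values, and its direction adds nothing to that of the others. These 4 probe sets share the same RNA on each array, so they are not independent measurements of the lines. The log2 fold change of the brightest stayed between 0.11 and 0.35 over 13 alternatives.

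Kdm5a had 6 probe sets, of which 3 were bright enough to test. The brightest, 1437105_at, read 597 and 509 in KO lines, against 553 and 445 in cKO lines. The groups overlapped (log2 fold change 0.15, 95% interval -0.29 to 0.60, limma adjusted p = 0.818). Its other tested probe sets gave 0.17 and 0.44, both with overlapping groups and mean signals under 100 in each group. The value of 0.44 belongs to 1441318_at and rested on KO line 1, since it was 0.00837 without that line and 0.88 without KO line 2. The remaining 3 probe sets read at most 70.2 on any array.

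Kdm5c is X-linked like Kdm6a, and in mice both genes are known to escape X inactivation. It had 9 probe sets, more than any other of the 10 genes, and 7 were tested. They did not point one way, since 3 had a positive and 4 a negative log2 fold change, from -0.52 to 0.22. The brightest, 1444157_a_at, read 873 and 944 in KO lines, against 902 and 1084 in cKO lines (log2 fold change -0.12, 95% interval -0.52 to 0.27, limma adjusted p = 0.83). The next, 1444158_at, read 919 and 750 in KO lines, against 828 and 737 in cKO lines (log2 fold change 0.09). Among the 7, only 1441450_s_at had groups that did not overlap, with 176 and 109 in KO lines, against 209 and 194 in cKO lines (log2 fold change -0.52, adjusted p = 0.604). This value was -0.85 when KO line 1 was left out and -0.19 when KO line 2 was. Which transcripts of Kdm5c each probe set detects was not used here. Kdm5d, the Y-linked copy of Kdm5c, lay below the filter and read at most 25.5 on any array.

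**Figure D2:**
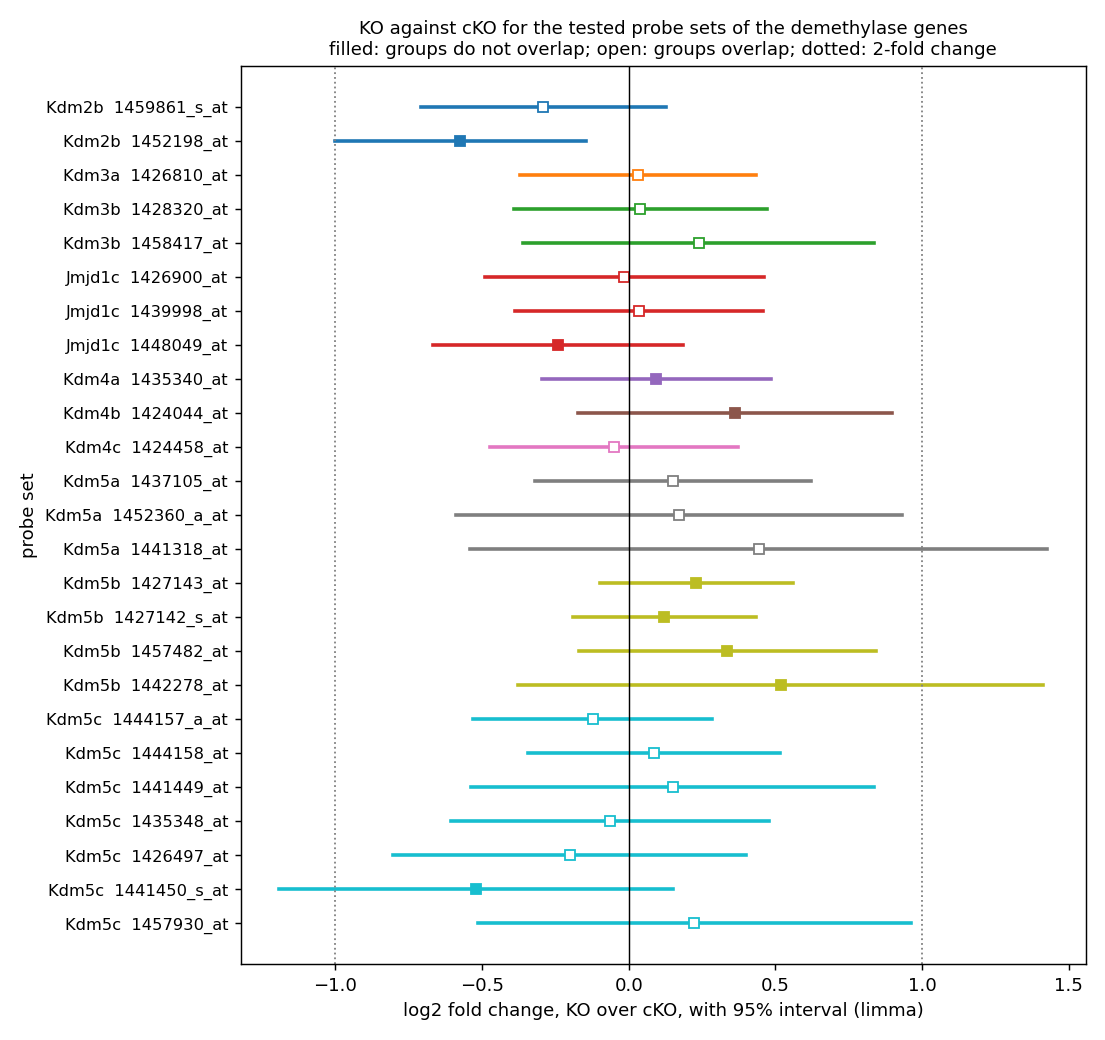
Log2 fold change of KO over cKO for each tested probe set of the 10 genes (squares) with its 95% interval from limma (lines), filled where the groups do not overlap, with dotted lines at a 2-fold change. The 4 Kdm5b squares are filled and right of 0, both Kdm2b squares lie left of 0, and the 7 Kdm5c squares fall on both sides.

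Taken by probe set, 25 of the 31 lay above the filter on low signals and 0 of 25 were called, against 1.22% of the 20967 probe sets tested. Of the 25, 16 read higher and 9 lower in KO by log2 fold change. Their median was 0.09, where that of all probe sets tested was 0.02. The groups did not overlap for 9 of 25, of which 6 had KO above cKO (4 of Kdm5b and 1 each of Kdm4a and Kdm4b) and 3 had KO below (1 each of Kdm2b, Jmjd1c and Kdm5c). Over all probe sets tested this share was 40.1%. Among the probe sets of Kdm5b, 1442278_at passed the filter only through its KO values. The 95% interval lay inside a 2-fold change in either direction for 21 of the 25, and for 15043 of the 20967 probe sets tested.

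For Kdm2b, Kdm3a, Jmjd1c and Kdm5a the lines of each group differed from each other by more than the groups did. By the mean of the KO and cKO line differences this held for 7 of the 10 genes, and for 57.4% of all genes tested. With 2 lines in each group this criterion is the same as an overlap of the groups, so it repeats the count given above. For Kdm2b, Kdm3a, Jmjd1c, Kdm4b and Kdm5a, line 1 read above line 2 in both KO and cKO lines, 5 of 10 genes, as did 37.3% of all genes tested. For Kdm4c and Kdm5c line 2 read above line 1 in both groups. The difference between lines was largest for Jmjd1c, and for Kdm2b it was 0.30 (log2) in KO and 0.40 in cKO lines. The median signal of the whole array also went with the line number, at 81.6 and 64.9 in KO lines 1 and 2 and 76.6 and 64.4 in cKO lines 1 and 2, and its part in these values was not tested.

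**Figure D3:**
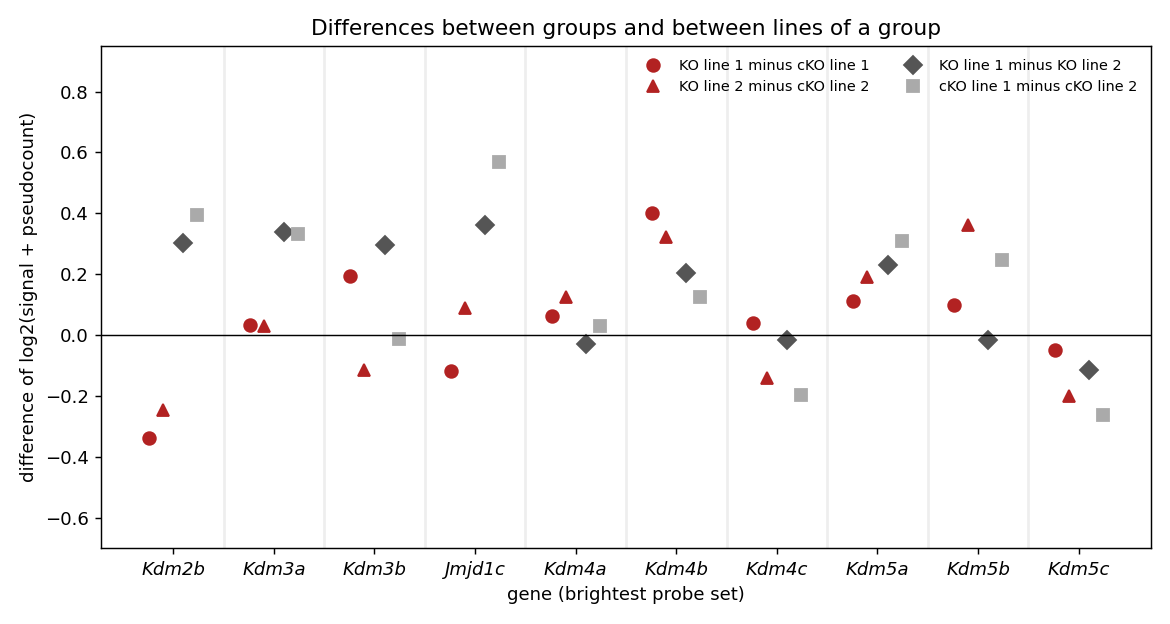
Differences of log2(signal + pseudocount) for the brightest probe set of each gene, between KO and cKO lines of the same number (red) and between line 1 and line 2 of one group (dark grey for KO, light grey for cKO). For Kdm3a and Jmjd1c the grey points lie far from 0 and the red points near it, while for Kdm4b and Kdm4a the red points lie above the grey ones.

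The rest of the histone demethylases and JmjC proteins were read from a list of 21 genes, of which 17 were tested and 0 called, with 2 at an unadjusted p under 0.05. The median log2 fold change was -0.02. These 2 were Kdm6b, which encodes the H3K27 demethylase JMJD3 (log2 fold change -0.75, adjusted p = 0.0877), and Jmjd4, a JmjC hydroxylase (-0.57, adjusted p = 0.25). Kdm2a, the paralogue of Kdm2b, read 871 and 789 in KO lines, against 1050 and 824 in cKO lines with its brightest probe set (log2 fold change -0.17, limma adjusted p = 0.781). The tested probe sets of Kdm2a did not point one way. Its next brightest read 381 and 341 in KO lines, against 505 and 453 in cKO lines (-0.40, limma adjusted p = 0.512). A dimmer probe set read 180 and 171 in KO lines, against 153 and 99.7 in cKO lines (0.49, limma adjusted p = 0.623). The groups did not overlap in either. The dimmest tested probe set gave 0.21 with overlapping groups. Kdm1a, which encodes LSD1, a demethylase of another enzyme class that acts on H3K4, gave -0.02 (adjusted p = 0.979).

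Enzymes that write the same marks were read in the same way, and 1 of them fell. Among 8 tested H3K4 methyltransferase genes 1 was called, against 2.2% of all genes tested. This was Setd7, whose product monomethylates H3K4 and several other proteins. Setd7 read 343 and 344 in KO lines, against 1132 and 1087 in cKO lines. The log2 fold change was -1.68 (SE 0.16, adjusted p = 0.0098), and it was called under all 13 alternatives. A second Setd7 probe set read 27.7 and 25.6 in KO lines, against 57.4 and 61.3 in cKO lines, below the filter. The other 7 H3K4 methyltransferase genes lay between -0.08 and 0.29. Of 6 tested H3K9 methyltransferase genes 0 were called and 0 had an unadjusted p under 0.05, with Setdb1 at -0.23 and Suv39h2 at 0.33. Of 7 tested H3K36 methyltransferase genes 0 were called, and Nsd1 alone had an unadjusted p under 0.05, at 3091 and 3569 in KO lines, against 2493 and 2624 in cKO lines (log2 fold change 0.38, adjusted p = 0.275). Smyd2 on the same list gave -0.18 (adjusted p = 0.711).

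Partners of these demethylases gave no call. On the list for the KDM2B complex, which includes Kdm2b itself, 8 genes were tested and 0 called. Yaf2, which encodes a subunit of variant PRC1, alone had an unadjusted p under 0.05, with 593 and 582 in KO lines, against 1019 and 841 in cKO lines (log2 fold change -0.65, adjusted p = 0.126). Usp7, a deubiquitinase of the complex, gave 0.25 (adjusted p = 0.413). Of 11 tested partners of KDM5 proteins, 0 were called. Gatad1, a reader protein found with KDM5A, was at -0.36 (unadjusted p of 0.0383, adjusted p = 0.317) and Emsy at 0.28 (adjusted p = 0.556). Of 6 tested partners of KDM3 and KDM4 proteins 0 were called, with Gps2 of the NCoR complex at 0.42 (unadjusted p of 0.0492, adjusted p = 0.358) and Tbl1x at -0.23 (adjusted p = 0.528).

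Genes reported as targets of KDM3A or KDM4C in mouse embryonic stem cells were Tcl1, Tfcp2l1, Zfp57 and Nanog. All 4 were tested, 0 were called, 1 had an unadjusted p under 0.05, and the median log2 fold change was 0.54. Tfcp2l1, a transcription factor of naive pluripotency, read 4342 and 3239 in KO lines, against 2141 and 1169 in cKO lines (log2 fold change 1.24, adjusted p = 0.0889). It passed when arrays were centred on their medians (adjusted p = 0.0257), while the mean of its probe sets gave 0.45 (adjusted p = 0.764). With 1 array left out the log2 fold change of Tfcp2l1 ran from 0.81 to 1.68. Tcl1, a cofactor of AKT kinases, read 1340 and 884 in KO lines, against 962 and 709 in cKO lines, with overlapping groups (log2 fold change 0.40, adjusted p = 0.574). Zfp57, a zinc finger protein that protects imprints, gave 0.09 (adjusted p = 0.901), and Nanog gave 0.67 (adjusted p = 0.427). The Nanog value depended on single arrays. It was 1.02 without KO line 2 and 1.12 without cKO line 1, but 0.32 without KO line 1 and 0.22 without cKO line 2. Pou5f1, whose product is reported to activate Kdm3a and Kdm4c in these cells, gave -0.06 (adjusted p = 0.847).

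**Figure D4:**
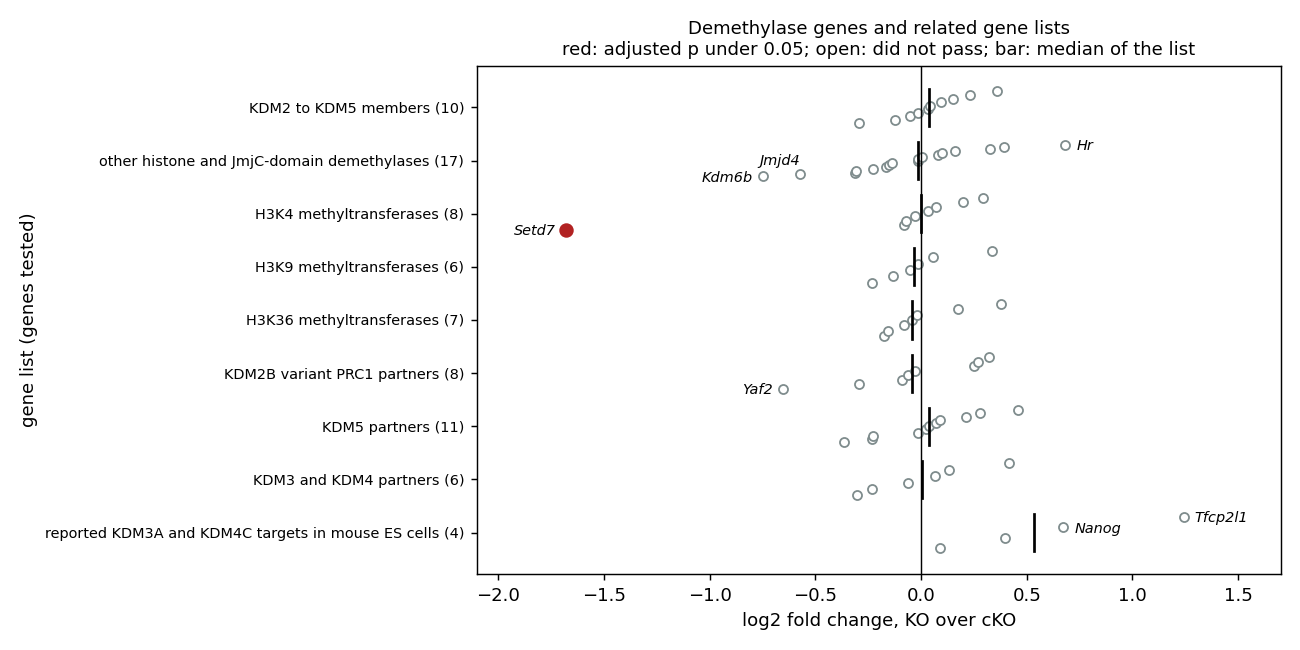
Log2 fold change of KO over cKO for each tested gene of the demethylases and of the related lists, with red points for genes at an adjusted p under 0.05, open points for the rest, a bar for each list's median, and names for genes beyond 0.5 in either direction. Setd7, at -1.68, is the only red point, and the 10 demethylase genes lie between -0.29 and 0.36.

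The gene of smallest p among the 10, Kdm5b, was set against all other genes tested by the distance between their log2 values over the 4 arrays, each centred on its own mean. The 3 closest were Tcf24, Msh3 and Psmc2, at distances of 0.0183, 0.0204 and 0.0287. Msh3, a mismatch repair gene, read 526 and 538 in KO lines, against 499 and 420 in cKO lines, so that cKO line 2 was the low array for it as for Kdm5b. Psmc2, a proteasome subunit, read 11259 and 11476 in KO lines, against 10580 and 8702 in cKO lines. None of the 3 was called (adjusted p of 0.836, 0.691 and 0.419).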

How the data were processed

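Total RNA of 2 KO and 2 cKO lines was hybridised to 1 array each. For each probe set the authors deposited 1 intensity, not log-transformed. The submitters' processing notes name MAS5, with no version or settings. Each array has a mean of 500 once 2% of values at either end are trimmed, so the arrays share a scale. Signals of low probe sets are mostly background and noisy on a log scale, and depth has no count here.

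Of 45101 probe sets, 34945 name 1 gene, 932 several and 9160 none, and 64 are controls, all left out. Symbols were updated through Entrez identifiers for 34741 (RefSeq, GRCm38.p6). All 31 member probe sets matched. Values became log2(signal + 4.79), the 10th percentile, and folds understate changes of dim genes. The brightest probe set (highest mean log2 value) stood for a gene, and the lower 40% were left out (below a signal of 77.7 for genes and 53.8 for probe sets). KO was compared with cKO in limma 3.58.1 (R 4.3.3; lmFit, eBayes with trend) over 10916 genes, and over 20967 probe sets. Where a gene's brightest probe set is described, its test is that over genes, and other probe sets have the test over probe sets.

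Genes named are the 10 members, Kdm6a, and the called genes or else the 2 of smallest p of each list. The 3 genes nearest the member of smallest p are also named. Kdm2a, Kdm1a, Kdm4d, Kdm5d, Esrrb, Pou5f1, Tcl1, Zfp57 and the markers below the filter (Col6a1, Pdgfra, Pdgfrb and Lum) were named after their values were seen. Members and lists were chosen with earlier results of these data known. The test was tried on simulated data. Alternatives were other pseudocounts (1, 25th percentile), filters (none, 60%), quantile or median scaling, the mean of probe sets, no variance trend, a line-number block, a threshold of 0.1 and each array left out. Plots used Python 3.11.15 with matplotlib 3.10.9.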

Additional observations from a re-analysis of the deposited data

How the results depend on the processing

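The values most exposed to the processing were the number of calls over all genes and the direction of members whose change was near 0. Over 15 settings 0 of the 10 genes were called. Of the member probe sets 1 was called with the line number as a block (1452198_at of Kdm2b, log2 fold change -0.57, adjusted p = 0.00981) and 0 in the other settings. With this block limma called 1048 genes and 1682 probe sets. The labels do not pair the lines. The correlation of same-numbered lines' deviations across 10916 genes was 0.52. The median signal of the arrays also went with the line number, and whether the lines are paired was not tested. The block also passed Kdm6a, Kdm6b, Nsd1, Yaf2, Tfcp2l1, Nanog, Sox2 and Zfp42.

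Against 240 genes called, the count was 147 without a filter, 154 with the lower 60% left out, 129 with the mean of all probe sets, 28 without the variance trend and 428 at a threshold of 0.1. Leaving out 1 array gave 228 to 432, the highest without KO line 1 and the only one to move the count by over 1.5 times. Against 255 probe sets called, the count was 125 without a filter, 1 without the variance trend, 462 at the threshold of 0.1 and 251 to 392 with 1 array left out, the highest without cKO line 1. The 4653 genes whose groups do not overlap became 3010 with the lower 60% left out and 7398 to 8165 with 1 array left out, where fewer values must agree.

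Signs turned, without any call, for these log2 fold changes. With median centring Kdm3a gave -0.0161, Kdm3b -0.00779 and Jmjd1c 1439998_at -0.0124. With quantile normalization Jmjd1c gave 0.00179. With the mean of probe sets Kdm5c gave 0.0289 and Emsy -0.0216. With 1 array left out the ranges were -0.14 to 0.20 for Kdm3a, -0.11 to 0.19 for Kdm3b, -0.30 to 0.27 for Jmjd1c, -0.15 to 0.0489 for Kdm4c, -0.00354 to 0.30 for Kdm5a, -0.26 to 0.00862 for Kdm5c and -0.11 to 0.78 for Suv39h2. Among further probe sets they were -0.44 to 0.0343 (1426497_at), -0.23 to 0.10 (1435348_at), -0.17 to 0.47 (1441449_at), -0.0590 to 0.23 (1444158_at) and -0.0782 to 0.53 (1457930_at) for Kdm5c, -0.0329 to 0.10 (1439998_at) for Jmjd1c and -0.0159 to 0.36 (1452360_a_at) for Kdm5a. Kdm2b stayed negative, and Kdm4a, Kdm4b and Kdm5b positive, in each setting that tested them. The cause of these shifts was not tested. Signal near background limits the probe sets under about 100.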
